A study of Homo sapiens with 2 samples.

Results

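HOTAIR, MALAT1, NEAT1 and LINC00657 are 4 human long non-coding RNAs. They were chosen here by gene symbol, with earlier results of these data known. The symbols were looked up in a table of 23608 gene rows that sets RNA sequencing beside ribosome profiling. All 4 had a row. The cells were SW13, a cell line established from a human adrenal adenocarcinoma. Both libraries came from SW13 cells made to overexpress murine non-coding RNAs by transfection, with the constructs Add2-Mhrt779 and Add2-Hotair. Per the labels' protocols, cells at 80% confluence received 5 µg with a Lipofectamine reagent and were harvested 48 hours later. One library was made from total RNA (RNA sequencing) and 1 from ribosome-associated RNA fragments (ribosome profiling), with no replicate of either, so no difference below has a replicate check. A sample without the constructs was not analysed here.

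Long non-coding RNAs are transcribed and often spliced like mRNAs but hold no long conserved reading frame, while ribosome profiling sequences the pieces of RNA that ribosomes shield from a nuclease. HOTAIR is transcribed from the HOXC cluster, antisense to the HOXC genes, and is known for reported binding to the Polycomb repressive complex PRC2 and to the LSD1 demethylase complex. MALAT1 gathers in nuclear speckles, where splicing factors concentrate, and NEAT1 is the scaffold of paraspeckles, another nuclear body. LINC00657 is also called NORAD. It is known to bind PUMILIO proteins and to lie mostly in the cytoplasm, so the 4 RNAs are not described here as a nuclear group, and neither library measured where in the cell an RNA was.

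The sequences of the 4 RNAs are shown first, because reading frames are what ribosomes could use and because the known partners of MALAT1 and LINC00657 act through short motifs. They were taken from GENCODE release 29 (GRCh38), as the longest transcript of each gene that was at most 5 bases longer than its row: HOTAIR-201 with 2421 bases, MALAT1-202 with 8708, NEAT1-203 with 3524 and NORAD-201 with 5339. For HOTAIR the row spans introns, so the spliced length behind the row is not known. The NEAT1 row, with 3735 bases, covers only the short form of the gene and is longer than the NEAT1 transcript used. The sequence results for NEAT1 hold for that transcript alone and not for the longer form. The longest reading frame from an ATG to a stop codon had 106 codons in HOTAIR, 70 in MALAT1, 97 in NEAT1 and 108 in LINC00657. Among protein-coding transcripts within 20% of the same length, the median longest frame had 464 codons for HOTAIR, 1184 for MALAT1, 624 for NEAT1 and 810 for LINC00657. The share of those coding transcripts with a frame as short or shorter was 3.57%, 0%, 1.78% and 0.954%. Among long intergenic and antisense transcripts of like length, the shares were 64.2%, 3.08%, 48.7% and 41.9%, so the longest frame of MALAT1 was short even among non-coding transcripts. Each of the following lines gives the start of that frame, written as DNA, 5′ to 3′, with the ATG in capitals.
HOTAIR: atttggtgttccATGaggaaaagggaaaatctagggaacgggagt
MALAT1: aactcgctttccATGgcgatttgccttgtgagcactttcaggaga
NEAT1: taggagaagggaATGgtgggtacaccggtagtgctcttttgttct
LINC00657: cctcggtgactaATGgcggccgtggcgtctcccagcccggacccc

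MALAT1 is known to end in a triple helix of U-rich motifs with an A-rich tract in place of a tail added by polyadenylation. The stretch from position 8258 to 8361 of MALAT1-202 holds it, and the U-rich motifs and the A-rich tract are in capitals.
MALAT1: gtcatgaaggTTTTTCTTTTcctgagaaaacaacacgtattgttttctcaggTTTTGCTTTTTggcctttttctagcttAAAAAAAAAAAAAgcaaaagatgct
PUMILIO proteins are known to bind the motif TGTANATA, where N is any base, and only the transcribed strand was searched. LINC00657 held 15 matches, at 2.81 per 1000 bases, and HOTAIR held 3, while MALAT1 and the short NEAT1 transcript held none. Of 279 non-coding transcripts within 20% of the length of LINC00657, 33.3% held at least 1 match and 2 held 15 or more. The matches of LINC00657 include 3 pairs that lie within 10 bases of each other, starting at positions 1442, 2639 and 3275, shown with the motif in capitals.
LINC00657 pair 1: tatctgTGTATATAgTGTACATAaaggac
LINC00657 pair 2: ctatacTGTATATAtTGTATATAtaacgg
LINC00657 pair 3: gtgctgTGTATATAgTGTATATAagcgga
Of 1926 non-coding transcripts within 20% of the length of HOTAIR, 16.9% held at least 1 match and 9 held 3 or more. The 3 matches of HOTAIR lie near its 3′ end, from position 2157 on.
HOTAIR: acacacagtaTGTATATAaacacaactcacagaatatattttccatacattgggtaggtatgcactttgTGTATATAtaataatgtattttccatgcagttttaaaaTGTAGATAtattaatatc

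All 4 RNAs were far lower in ribosome profiling than in RNA sequencing. Levels are FPKM, the fragments assigned to a gene per 1000 bases of its length scaled to the mapped fragments of the library, as the authors computed them. HOTAIR had 612 FPKM in RNA sequencing but 2.92 FPKM in ribosome profiling. MALAT1 had 390.3 FPKM and 8.54 FPKM in the same order. NEAT1 had 97.5 FPKM and 1.47 FPKM, and its row covers only the short form of the gene. These 3 are among the abundant RNAs of the total RNA library. The ribosome profiling value was 0.476% of the RNA sequencing value for HOTAIR, 2.19% for MALAT1 and 1.51% for NEAT1. LINC00657 was less abundant, at 35.8 FPKM, and its ribosome profiling value of 0.337 FPKM was 0.94% of that level. Each library was scaled to its own mapped fragments, so these percentages are not shares of molecules bound by ribosomes. The mRNAs of the glycolytic enzyme GAPDH, the actin ACTB and the elongation factor EEF1A1 went from 1192 to 1708 FPKM, from 759 to 885 FPKM and from 566 to 506 FPKM.

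**Figure D1:**
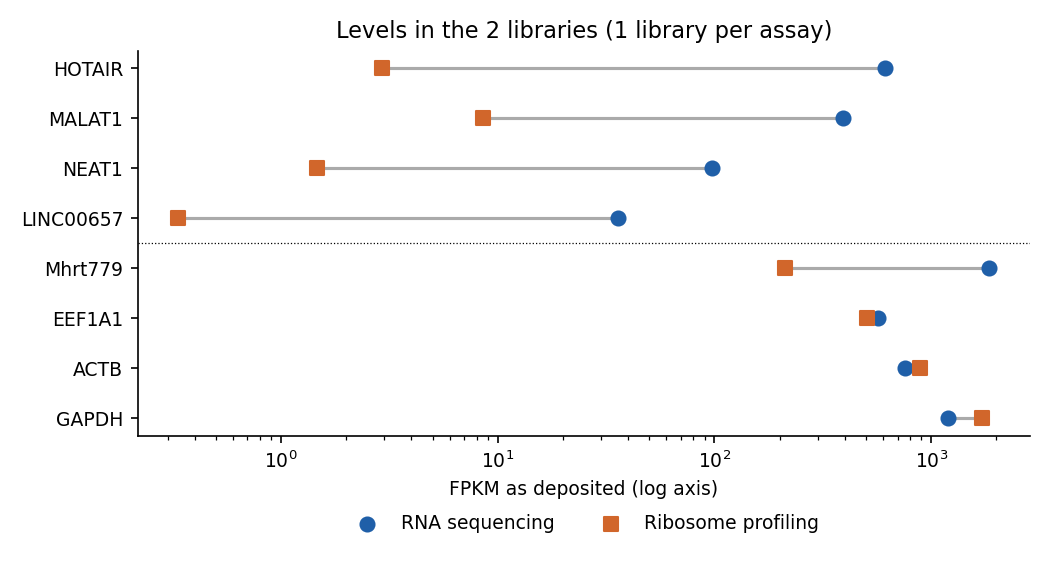
FPKM of each RNA in RNA sequencing (circles) and ribosome profiling (squares) on a log axis, 1 library per assay, with the 4 long non-coding RNAs above the dotted line and the transfected Mhrt779 and 3 abundant mRNAs below it. The 4 long non-coding RNAs move from between 35.8 and 612 FPKM to between 0.337 and 8.54 FPKM. GAPDH goes from 1192 to 1708 FPKM, ACTB from 759 to 885 FPKM and EEF1A1 from 566 to 506 FPKM. The HOTAIR row may also hold reads of the transfected murine Hotair.

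The rows lie at these places in hg19, the human build of the deposited coordinates. HOTAIR is on chromosome 12 from 54356092 to 54370203, a span that the table gives also to the overlapping gene HOXC11. NEAT1 and MALAT1 lie side by side on chromosome 11, from 65190269 to 65194003 and from 65265233 to 65273939, with 71.2 kb between them. LINC00657 is on chromosome 20 from 34633540 to 34638882. MALAT1, NEAT1 and LINC00657 share no base with another row. For HOTAIR and HOXC11, whether the counting used strand is not given in the sources used here, and HOXC11, a homeobox transcription factor gene, was listed at 0 in both libraries. The HOTAIR row is the human gene. Reads of its own RNA cannot be told apart from reads of the transfected murine Hotair that align to it.

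The low values of the table show how many fragments lie behind each level. In single-exon genes longer than 1000 bases, values under 12 fragments fell on multiples of 0.5 fragment, within 0.02, in 90.6% of 203 values in RNA sequencing and 91.9% of 161 values in ribosome profiling. In RNA sequencing 102 of these were whole numbers and 82 lay 0.5 off one, and in ribosome profiling 93 and 55. The counts below take the fitted unit as 1 fragment. The step puts the fragments behind the scaling at 901517 for the RNA sequencing library and 577896 for the other. For MALAT1, NEAT1 and LINC00657 the length used was the span of the row. MALAT1 rested on 2992.5 fragments in RNA sequencing and 42 in ribosome profiling. NEAT1 rested on 310.5 and 3, and LINC00657 on 166 and 1. HOTAIR came to about 1225 and 3.74 at the length of HOTAIR-201, and its ribosome profiling count was taken as 4. The ribosome profiling levels of HOTAIR, NEAT1 and LINC00657 are therefore near the lower limit of what this library could show. At the median log2 ratio of the 2550 tested genes above 0 in both libraries, 0.44 without a pseudocount, ribosome profiling would have held 1068 fragments of HOTAIR, 2608 of MALAT1, 271 of NEAT1 and 145 of LINC00657.

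Counting error leaves the order of the RNA levels clear and that of the ribosome profiling levels mostly open. The exact Poisson 95% intervals of the RNA sequencing levels were 578 to 648 FPKM for HOTAIR, 376 to 404.5 for MALAT1, 86.9 to 108.9 for NEAT1 and 30.6 to 41.7 for LINC00657, and no neighbours in that order overlapped. In ribosome profiling the order was MALAT1, HOTAIR, NEAT1, LINC00657, with intervals of 6.16 to 11.5, 0.850 to 7.98, 0.303 to 4.29 and 0.0085 to 1.88 FPKM. Each interval overlapped that of its neighbour in the order, and MALAT1 was clear only of NEAT1 and LINC00657. These intervals cover counting error only, for fragments without molecular identifiers, and hold no spread between cultures.

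In the authors' deposited table all 4 of 4 RNAs were called significantly lower in ribosome profiling, against 0.887% of the 4849 rows tested there, of which 0.412% were called higher. Because the 4 RNAs were chosen with earlier results of these data known, this contrast does not test an independent set. The authors' deposited table puts the log2 ratio of HOTAIR at -7.71 ± 1.33 (SE), with q = 5.72e-06. In the authors' deposited table MALAT1 stood at -5.51 ± 1.16 (q = 0.00064) and NEAT1 at -6.05 ± 1.27 (q = 0.000567). LINC00657, with the largest error, stood at -6.73 ± 1.62 (q = 0.00561) in the authors' deposited table. The standard error is the ratio over the deposited test statistic, so it is the authors' model error from 1 library per assay. From the recovered fragments, RNA sequencing was 196-fold above ribosome profiling for HOTAIR (exact Clopper-Pearson 95% interval 76.5 to 722). The same fold was 45.7 for MALAT1 (33.7 to 63.5), 66.3 for NEAT1 (22.5 to 323) and 106 for LINC00657 (18.8 to 4228). The interval of LINC00657 is the widest because 1 fragment sets it.

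**Figure D2:**
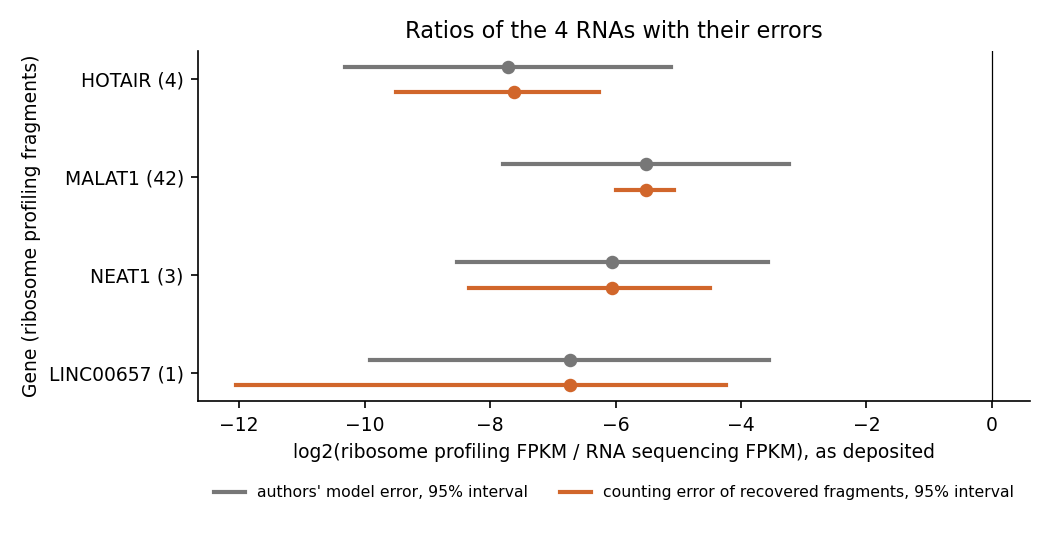
The log2 ratio of ribosome profiling FPKM to RNA sequencing FPKM for each RNA, with the 95% interval from the authors' model error (grey) and from counting the recovered fragments (orange), and the number of ribosome profiling fragments in parentheses. All intervals lie below 0, and that of MALAT1 from counts, -5.99 to -5.07, is the narrowest.

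The ratios of the 4 RNAs were not separated from each other by the authors' model error. Of the 6 pairs, the largest difference in deposited log2 ratio was HOTAIR minus MALAT1, at -2.20, with a 95% interval of -5.66 to 1.26 that treats both errors as independent. The smallest was MALAT1 minus NEAT1, at 0.54 with an interval from -2.83 to 3.91. The intervals of all 6 pairs include 0, and they are wide enough to allow differences of several log2 units. By counting error alone the log2 interval of HOTAIR, -9.50 to -6.26, did not overlap that of MALAT1, -5.99 to -5.07. The HOTAIR interval rests on the rounded count of 4.

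To set the RNAs among all genes, the log2 ratio of (FPKM + 1) was centred on the median of 2734 tested genes, those whose mean of both libraries was at least 10 FPKM and whose status was neither FAIL nor HIDATA. Because 1 FPKM is added to each value, ratios of genes with low values come out too small. Ribosome profiling was 1.31-fold above RNA sequencing for the median gene before centring. HOTAIR lay 205-fold below the median gene, at a centred log2 ratio of -7.68. MALAT1 lay 53.7-fold below (-5.75), NEAT1 52.2-fold (-5.71) and LINC00657 36.1-fold (-5.17). All 4 passed a 4-fold limit, which 9.8% of tested genes also passed on the low side. All 4 were under 10 FPKM in ribosome profiling, so they passed the filter only through RNA sequencing. That favours a low ratio, so the count is no separate support for one.

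**Figure D3:**
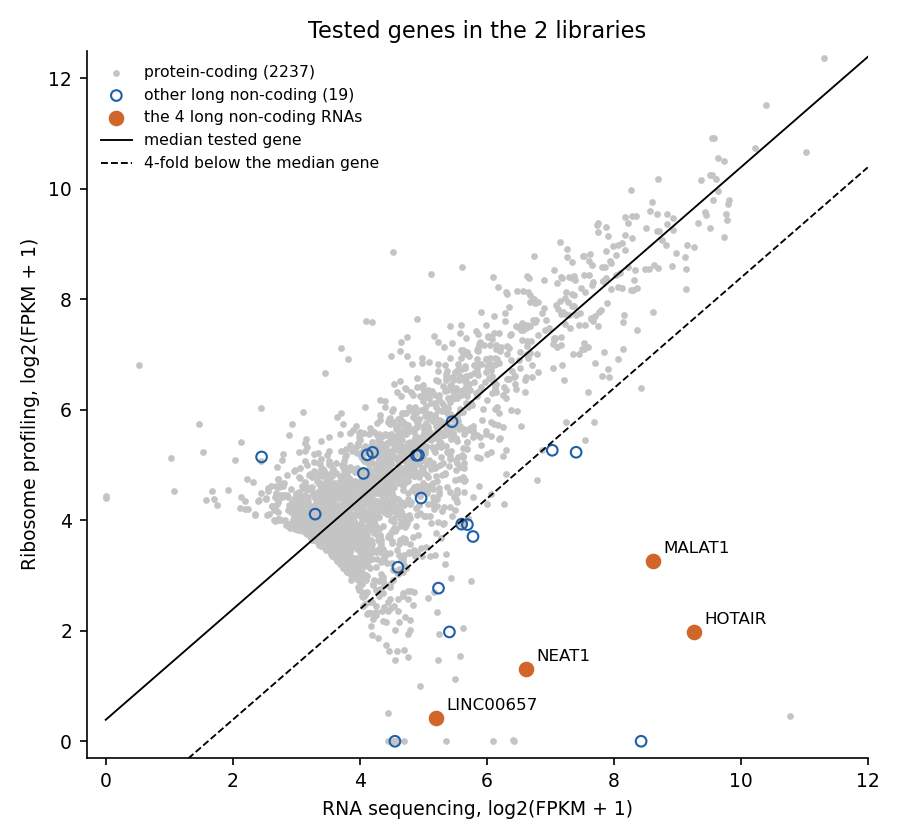
Log2(FPKM + 1) in RNA sequencing against ribosome profiling for tested protein-coding genes (grey), the other 19 long non-coding rows (open blue circles) and the 4 named RNAs (orange), with lines for the median tested gene and for 4-fold below it. The 4 RNAs sit below the dashed line, and HOTAIR and MALAT1 have less ribosome profiling signal than every grey point within 1.5-fold of their RNA level.

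mRNAs at the same RNA level had far more ribosome profiling signal. Among 37 protein-coding genes within 1.5-fold of HOTAIR in RNA sequencing, ribosome profiling ranged from 291 to 1948 FPKM with a median of 707, which is 242 times the level of HOTAIR. Among 51 such genes for MALAT1 the range was 83.2 to 1155 FPKM with a median of 447. None of these genes was as low as HOTAIR or MALAT1. For NEAT1 the 143 genes had a median of 137 FPKM, and 3 were lower than NEAT1: RPL21, H3F3A and NPIPL3. For LINC00657 the 511 genes had a median of 39.3 FPKM, and 2 were lower, C20orf24 and SPDYE8P. Across all 2237 tested protein-coding genes, 5 had a centred ratio at or below that of LINC00657: GAGE12D, RPL21, H3F3A, NPIPL3 and SPDYE8P. These belong to families with near-identical copies, between which reads could be divided, and of the 5 only SPDYE8P was called in the authors' deposited table.

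In total 130 tested rows of every class lay at or below LINC00657, and 114 of them were listed at 0 in ribosome profiling. The rows nearest to each RNA were found by distance over log2(FPKM + 1) in the 2 libraries, so likeness rests on 2 values. For HOTAIR the nearest was MTRNR2L4, with 359 and 2.52 FPKM at a distance of 0.78, then MTRNR2L3 and MALAT1. MALAT1 was nearest to MTRNR2L7, with 253 and 7.36 FPKM at 0.65, and then to HOTAIR. NEAT1 was nearest to MTRNR2L5, with 149 and 2.82 FPKM at 0.87, followed by NBPF16 and NBPF24. The MTRNR2L genes are nuclear copies of a mitochondrial ribosomal RNA, and reads of near-identical copies make these rows uncertain. Of the 43 rows called lower in the authors' deposited table, 9 were MTRNR2L rows. For LINC00657 all 5 nearest rows, SMA4, SPDYE8P, GUSBP3, LOC100132247 and LOC613037, had between 27.3 and 44.3 FPKM in RNA sequencing, with none listed in ribosome profiling.

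Among the 23 tested rows that RefSeq classes as long non-coding RNA, the 4 RNAs took places 2 to 5 from the lowest ratio. BCYRN1, a short RNA of dendrites, was lower, with 344 FPKM of RNA and 0 listed with ribosomes, in a row that spans far more than its own gene. Without the 4 RNAs, the median of the other 19 rows lay 3.58-fold below the median gene, and 9 of 19 were at least 4-fold below it, against 9.8% of all tested genes and 3.93% of the protein-coding ones. The authors' deposited table gave 53 long non-coding rows the status OK, and the 4 called lower were HOTAIR, MALAT1, NEAT1 and LINC00657. Low ratios were not shared by every abundant long non-coding row. LINC00152 had 29.4 FPKM in RNA sequencing, near LINC00657, and 35.2 FPKM in ribosome profiling. Its row is long, from 87754974 to 87821030 on chromosome 2, as is that of RASAL2-AS1, from 178060643 to 178448648 on chromosome 1. SLMO2-ATP5E and SERF2-C15ORF63, also among the 19, are named for joined genes. Whether overlapping mRNAs add to such rows was not tested. The snoRNA host transcript SNHG8 had 42.8 and 54.1 FPKM, GAS5, another host transcript, had 54.1 and 12.1 FPKM, SNHG5 had 50.8 and 14.2 FPKM, and SNHG9, at 22.5 FPKM of RNA, was listed at 0 with ribosomes.

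Other long non-coding RNAs of a list drawn up for comparison were mostly too low to judge. Of 33 in the table, 13 were listed at 0 in both libraries and 5 passed the filter, with a median centred log2 ratio of -0.13 and 2 at least 2-fold below the median gene, against 19.7% of all tested genes. LINC00324 was the lowest of them, with 169 and 36.6 FPKM, then C17orf76-AS1 with 129.9 and 37.5 FPKM. RASAL2-AS1, in its long row, was the highest with 17.4 and 36.5 FPKM. Among those below the filter, TUG1, a nuclear and cytoplasmic RNA, had the lowest ratio of the list. It had 8.20 FPKM of RNA against 0.752 FPKM with ribosomes. Others below the filter were near the median gene, such as FTX with 5.92 and 8.03 FPKM and DLEU1 with 4.81 and 5.61 FPKM. OIP5-AS1 lay between, with 8.52 and 3.58 FPKM. Of 16 snoRNA host transcripts 6 were tested, with a median of -2.001 and 4 at least 2-fold below. The row of the transfected Mhrt779 had 1851 and 210.5 FPKM, 11.5-fold below the median gene. Rows of other Mhrt forms had like values, among them Mhrt709 with 1914 and 297 FPKM and Mhrt826 with 1669 and 192 FPKM. Reads could be divided between these forms, so the row may not measure Mhrt779 alone.

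The protein-coding genes around each RNA were compared with it, since they share its chromosome region. Any reads of the transfected murine Hotair in the HOTAIR row would not come from that region, so for HOTAIR the comparison may not hold. HOTAIR stood 139-fold above the highest of 11 protein-coding genes within 250 kb in RNA sequencing, and none of these reached the filter. HOXC10, 8.74 kb away on one side, was the highest of them with 4.42 and 2.95 FPKM, and HOXC12, 5.74 kb away on the other, was listed at 0 in both libraries. In ribosome profiling HOTAIR and HOXC10 had 2.92 and 2.95 FPKM. HOTAIR rests there on about 4 fragments, with a counting interval of 0.850 to 7.98 FPKM, so equal levels cannot be claimed. Of the 9 protein-coding HOXC genes, which set position along the body axis, 4 were listed at 0 in both libraries. For scale, 14514 of all 23608 rows were above 0 in at least 1 library, leaving out status FAIL and HIDATA. On the far side, CALCOCO1 had 3.64 and 2.58 FPKM.

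Around MALAT1 and NEAT1 the mRNAs were low in RNA sequencing. The pairs of values are again RNA sequencing, then ribosome profiling. LTBP3, a binding protein of latent TGF-beta that lies 18.6 kb to the right of MALAT1, had 6.70 and 7.47 FPKM. MALAT1 itself, with 16.8 times the RNA level of the highest protein-coding neighbour, had 8.54 FPKM in ribosome profiling, close to the level of LTBP3. That neighbour was SSSCA1, with 23.3 and 28.7 FPKM, and on the left DPF2, a chromatin remodelling subunit, had 8.57 and 8.55 FPKM and the protease gene CAPN1 had 9.20 and 10.6 FPKM. FRMD8, the nearest gene to NEAT1 at 9.27 kb, had the lowest ratio of these neighbours, with 5.94 and 0.487 FPKM. Its log2 ratio of -3.61 (standard error 1.56, q = 0.247) was not called in the authors' deposited table. Of 18 protein-coding genes within 250 kb of NEAT1, 12 had more ribosome profiling FPKM than NEAT1, although NEAT1 was 4.19-fold above the highest of them in RNA sequencing. The same count was 6 of 18 for MALAT1, 1 of 11 for HOTAIR and 3 of 5 for LINC00657, so most neighbours of MALAT1 and HOTAIR were lower.

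SCAND1, 90.3 kb from LINC00657, gave the closest match in RNA level. SCAND1 encodes a short SCAN domain protein. It had 33.2 FPKM in RNA sequencing, against 35.8 for LINC00657, and 43.2 FPKM in ribosome profiling, against 0.337. The nearest gene on the left, CNBD2, was listed at 0 in both libraries, and EPB41L1, the nearest on the right, had 1.56 FPKM of RNA and 0 listed with ribosomes. AAR2, a splicing factor and the highest neighbour on the right, had 3.88 and 3.41 FPKM.

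**Figure D4:**
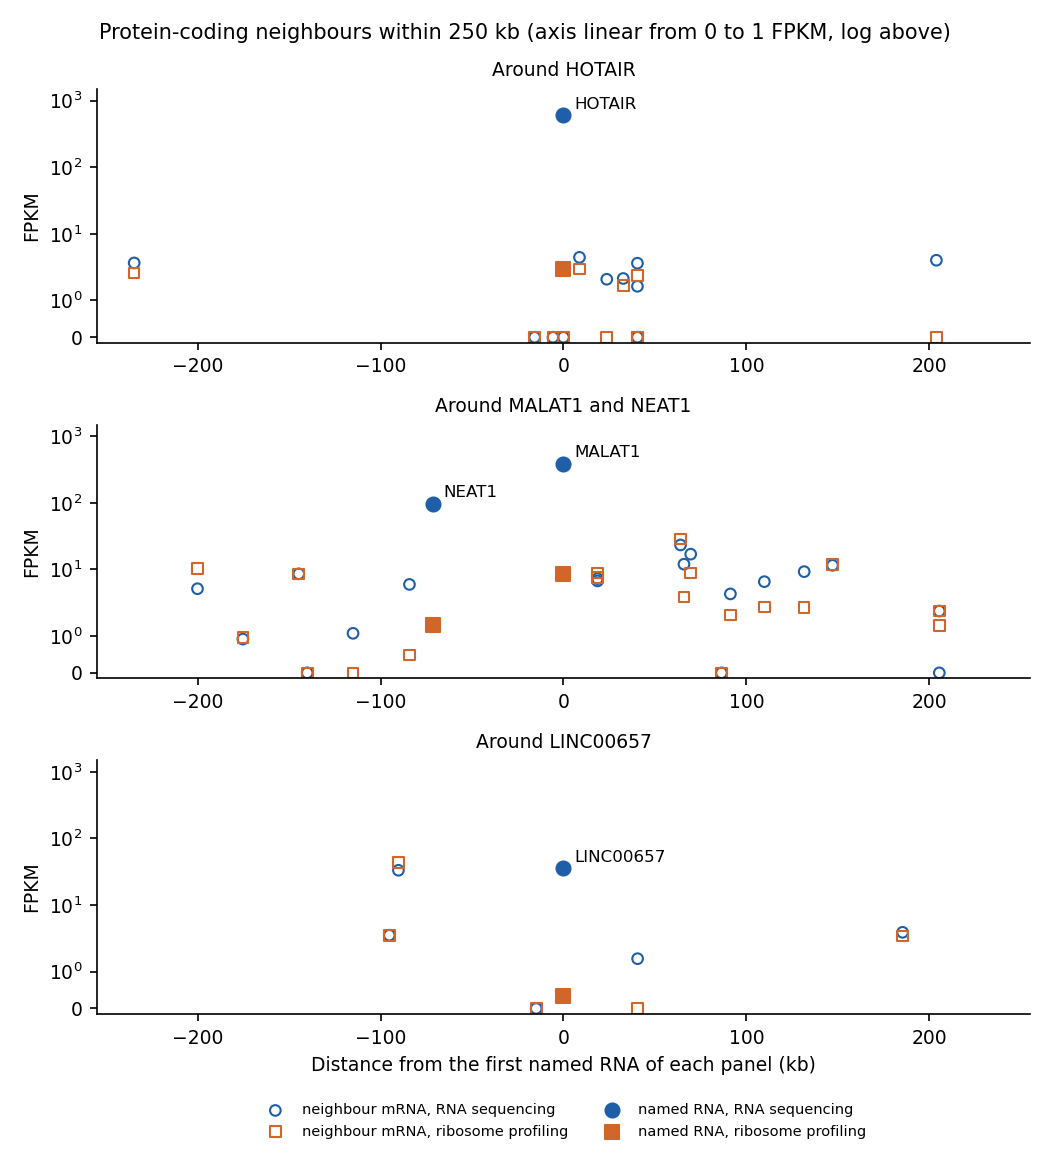
FPKM of HOTAIR, MALAT1 with NEAT1, and LINC00657 (filled) and of protein-coding neighbours within 250 kb (open) in RNA sequencing (circles) and ribosome profiling (squares), by distance in kb, on an axis that is linear from 0 to 1 FPKM and logarithmic above. The filled circles stand above the open ones, and the filled squares lie within the range of the open squares.

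The mRNAs of proteins known to bind these RNAs are given by list. Because the filter takes the mean of both libraries, a gene low in RNA sequencing could pass only through a higher ribosome profiling value, so the counts over tested members describe those members alone. PRC2 and LSD1 complex genes, the reported partners of HOTAIR, had 4 of 16 members past the filter, with a median centred log2 ratio of 0.64 and none 2-fold above or below, where 13.1% and 19.7% of tested genes were. The deacetylase HDAC1 had 22.01 and 44.4 FPKM in RNA sequencing and ribosome profiling, the histone chaperone RBBP7 had 18.3 and 39.5 FPKM, and the demethylase KDM1A, the lowest of the 4, had 15.1 and 18.5 FPKM. HDAC2 had the highest ratio, with 9.49 and 23.1 FPKM. Among the 12 members below the filter, EZH2, the methyltransferase of PRC2, had 11.4 and 8.34 FPKM. The lowest ratio of the list was that of PHF19, a PRC2 accessory protein gene also below the filter, with 13.05 and 0.424 FPKM, 12.9-fold below the median gene. SUZ12, a core subunit, had 7.39 and 2.02 FPKM, and the accessory gene PHF1 had 6.99 and 1.74 FPKM.

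Paraspeckle protein genes, whose products NEAT1 gathers, had 11 of 16 tested, a median of -0.21, 2 at least 2-fold below and none 2-fold above the median gene, again beside 19.7% and 13.1% of tested genes. HNRNPK had 65.3 and 121 FPKM, NONO had 52.3 and 81.0 FPKM, and HNRNPH3 had 21.1 and 45.8 FPKM. HNRNPA1, a splicing factor with many near-identical copies in the genome and therefore an uncertain row, had the lowest, with 52.9 and 6.47 FPKM.

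Nuclear speckle and splicing genes, of the compartment that holds MALAT1, had 16 of 17 tested, a median of -0.060 and 2 at least 2-fold below, where 19.7% of tested genes were. The 3' splice site factor U2AF1 had 39.8 and 64.5 FPKM, SF3B1 of the U2 particle had 30.9 and 45.8 FPKM, and SRSF5 had 27.2 and 35.5 FPKM. SRSF7 was the highest with 13.1 and 28.7 FPKM, and RNPS1 the lowest with 18.7 and 6.43 FPKM. Of 11 genes for MALAT1 end processing and RNase P, the enzyme that cuts its 3′ end, 2 passed the filter: POP7 with 26.6 and 3.55 FPKM and RPP21 with 30.03 and 16.5 FPKM, both at least 2-fold below the median gene. RPP25, an RNase P subunit gene, had 2.86 FPKM of RNA and none listed with ribosomes. ELAC2, which encodes the nuclease that trims the small RNA released there, had 4.60 and 12.98 FPKM.

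PUMILIO genes and those of other LINC00657 partners had 6 of 8 tested, with a median of 0.022. Of these 6, 1 was at least 2-fold below, where 19.7% of tested genes were: CDC5L with 20.7 and 9.44 FPKM. The export factor ALYREF had 68.7 and 85.0 FPKM, RBMX had 41.1 and 59.4 FPKM, KHDRBS1 had 35.3 and 58.3 FPKM, and TOP1 was the highest with 16.8 and 35.8 FPKM. PUM2, a PUMILIO protein gene below the filter, had 6.57 and 6.44 FPKM. A set of 14 abundant mRNAs had a median of 0.34, with none 2-fold above or below the median gene, from EEF2, a translation elongation factor, at -0.83 to the glycolytic enzyme ENO1 at 0.77. MALAT1, the highest of the 4 long non-coding RNAs in ribosome profiling, was exceeded there by all 4 tested genes of the PRC2 list, all 6 of the PUMILIO list and all 14 abundant mRNAs. It was also exceeded by 10 of 11 paraspeckle genes, 14 of 16 speckle genes, 1 of 2 MALAT1 end processing genes, 4 of 6 snoRNA hosts and 5 of 5 other listed long non-coding RNAs. Of all tested genes, only 10.9% were below MALAT1 in ribosome profiling, so these counts say little about the lists.

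**Figure D5:**
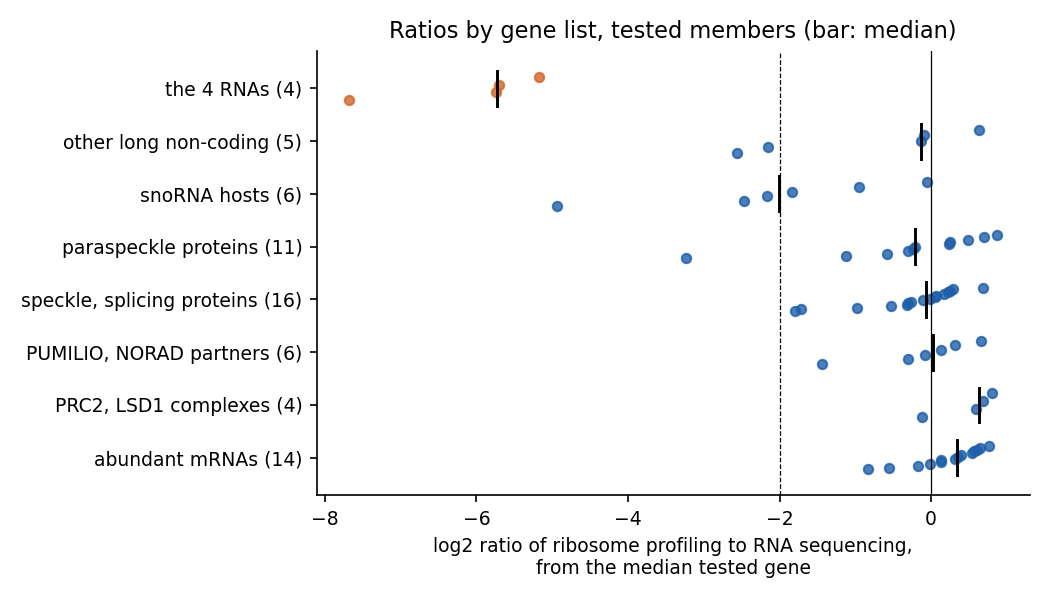
Centred log2 ratio of each tested gene by list, with the number tested in parentheses, a bar at the median, a solid line at the median tested gene and a dashed line 4-fold below it. The 4 long non-coding RNAs, from -7.68 to -5.17, lie left of every other list member shown.

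For the cell line as a whole, 13990 rows were above 0 in RNA sequencing, against 11423 in ribosome profiling. Leaving out status FAIL and HIDATA, 14514 of all 23608 rows were above 0 in at least 1 library. Of 10 genes that mark steroid-producing adrenal cortex, 9 were listed at 0 in both libraries, and NR0B1 had 1.60 and 1.25 FPKM. The epithelial keratins KRT18 and KRT8 had 57.2 and 139 FPKM and 41.9 and 69.7 FPKM, while CDH1, EPCAM and KRT19 were listed at 0. Of the adrenal medulla markers 4 of 6 were listed at 0 in both libraries, and of the 6 stromal and endothelial markers 3, COL1A2, COL3A1 and CDH5, were listed at 0 in both. PECAM1 had 0.261 FPKM of RNA and 0 listed with ribosomes, COL1A1 had 0.387 and 0.453 FPKM, and VIM, the mesenchymal filament protein, had 490.2 and 707 FPKM. Their part in the levels of the 4 RNAs was not tested.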

How the data were processed

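One library of RNA sequencing and 1 of ribosome profiling were compared. The authors deposited 1 table with an FPKM value per library and, per the file headers, their log2 ratio, test statistic, p-value, q-value and status per gene. Among the submitters' processing notes are bedtools 2.16.1, SAMtools 0.1.18, Bowtie2 2.0.0.6 and TopHat2 2.0.8b. They also list mm10 beside hg19. No role is stated for any of these. Which program wrote the table, and how it handled multiply aligned reads, is not given in the sources used here. FPKM is named from the column layout.

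The 4 RNAs and the gene lists were chosen with earlier results of these data known. With 1 library per group no test was run, and folds of 2 and 4 from the median gene were counted. Named genes were the 4 RNAs, their 5 nearest rows, protein-coding genes as low, nearest and highest neighbours within 250 kb, and in each list the 3 tested genes with the greatest mean and the extremes of the ratio. SMARCA4, also in the rule, was below the filter. TUG1, FTX, DLEU1, OIP5-AS1, EZH2, PHF19, SUZ12, PHF1, RPP25, ELAC2, PUM2, BCYRN1 and the marker genes were added after their values were seen. Some genes the rule names are not reported here.

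The fragment step was fitted on low values of single-exon genes (GENCODE 29), as FPKM times length. The fit took 201 bases off the length in both libraries, or 2.31% to 8.32% for the 4 RNAs, which cancels in a ratio. Its script recovered the step within 1% in 20 of 20 simulated tables of 500 rows. Gene classes came from RefSeq symbols and synonyms, which matched 2669 of 2734 tested genes. Python 3.11.15, pandas 2.3.3 and scipy 1.17.1 were used. The alternatives were pseudocounts, filters, status and centring, and their effect is given at the end.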

Additional observations from a re-analysis of the deposited data

How the results depend on the processing

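Under 9 alternatives, 8 planned and 1 added after the data were seen, all 4 RNAs stayed below the median gene, and all that passed the filter stayed at least 4-fold below it. The centred log2 ratio ranged from -8.16 to -6.61 for HOTAIR and from -5.96 to -5.07 for MALAT1, within the authors' model error of the reported values. With a pseudocount of 5 FPKM, NEAT1 was at -4.32 and LINC00657 at -3.27, and with no pseudocount, the added alternative, LINC00657 was at -7.18. Those shifts come from the pseudocount against levels of 1.47 and 0.337 FPKM. At a mean of at least 30 FPKM, LINC00657 was not tested and the count of the RNAs 4-fold below was 3. The number of tested genes at least 4-fold below, 268, was 647 with a mean of at least 1 FPKM, 544 with no filter, 178 with a mean of at least 30 FPKM and 169 with no pseudocount, where more or fewer genes were tested. No paired analysis was possible because each assay has 1 library. Depth limits HOTAIR, NEAT1 and LINC00657, whose ribosome profiling levels rest on about 4, 3 and 1 fragments. No replicate could be left out.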
